A study of Caenorhabditis elegans with 8 samples.

Results

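The rows described here form a block of 162 gene IDs in the read count table of an iCLIP experiment on FOG-3. They were chosen by ID number and by reads: a row belongs to the block when its WormBase number lies in the ranges 14200 to 14440 or 14480 to 14740, and it is a member when its raw reads over all 8 libraries come to at least 20. Of 502 numbers in these ranges, 347 had a row in the table, and 162 of those, out of 12240 gene rows in all, met the minimum. The summed reads chose the members, so their totals are a description and are not tested. The block is described as a stretch of clone-named non-coding genes, mostly transfer RNA (tRNA) genes of the nuclear genome, from the numbering alone. The table gives no gene names, and none (0) of its IDs was found in the RefSeq gene table of assembly WBcel235, which lists 46926 genes and among them 612 nuclear tRNA genes. Whether a given member is a tRNA gene could therefore not be checked, and the rows are called members below.

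In iCLIP, ultraviolet light fixes RNA to the protein that touches it, and the RNA is then purified with the protein and sequenced. All libraries came from L4 larvae of Caenorhabditis elegans grown on plates and carrying FLAG-tagged FOG-3 from a single integrated copy. The 4 FOG-3 libraries were purified with the FLAG antibody, and the 4 control libraries came from the same worms without it, so the controls carried the tag as well and no untagged strain was compared. Whole larvae were lysed, and without gene names the tissue make-up was not checked against marker genes.

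FOG-3 belongs to the Tob/BTG family and drives germ cells of the worm towards sperm. tRNAs are short, folded RNAs made by RNA polymerase III that carry amino acids to the ribosome, and animal genomes hold many copies of the same tRNA sequence. Together with ribosomal RNA they make up most of the RNA molecules of a cell. In a crosslinking experiment, rows for such RNAs are read against the control, which shows what is carried along without the antibody.

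The libraries are called by the 4-letter tags in their column names, which no label pairs with a numbered sample. Values per library are given below in a fixed order, for FOG-3 as TGGC, then GGTT, then CGGA, then GGCA, and for controls as AATA, then TTGT, then TTAA, then CCGG. Gene-assigned reads numbered 76790 to 186739 per library with the antibody and 14964 to 74892 without it, so that 1 read was worth 5.36 to 13.0 CPM (reads scaled to a common total of gene-assigned reads) with it and 13.4 to 66.8 CPM without. The p-values below rest on the spread between these libraries, with dispersion estimates shared across rows. They do not measure the spread of a single row on its own. Intervals cover counting error only, since reads that are PCR copies are not independent molecules.

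The members took a similar part of the reads with and without the antibody. Their share of gene-assigned reads was 4.01% in FOG-3 library TGGC (exact Clopper-Pearson 95% interval 3.92% to 4.10%), 4.22% in GGCA (4.09% to 4.35%), 4.46% in CGGA (4.32% to 4.61%) and 5.46% in GGTT (5.30% to 5.62%). In controls it was 4.50% in AATA (4.27% to 4.73%), 4.68% in TTAA (4.35% to 5.04%), 5.01% in CCGG (4.70% to 5.33%) and 5.96% in TTGT (5.79% to 6.13%). The groups overlapped, and their means were 4.54% ± 0.64 with the antibody and 5.04% ± 0.65 without it (SD, n = 4). The difference of -0.50 percentage points moved to -0.20 without control TTGT and to -0.81 without FOG-3 library GGTT.

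The standing of the members changed once the most abundant rows were taken into account. With the most abundant gene row left out of the total, the members held 6.31% ± 1.03 in FOG-3 and 10.1% ± 1.2 in controls (SD, n = 4), and with the 10 most abundant rows left out, 2 of which are members, the other 160 held 7.41% ± 1.28 and 20.5% ± 2.2. Both settings put every control above every FOG-3 library. Set against the most abundant row itself, the order turned: for each 100 reads of that row there were 14.7 to 18.7 member reads with the antibody and 8.27 to 14.3 without it. The groups did not overlap there either, though control TTGT at 14.3 lay close to FOG-3 library CGGA at 14.7. TMM scaling, which sets libraries against each other on the bulk of the tested rows, put the members at 2.56% to 3.28% of the scaled library size in FOG-3 and at 6.98% to 8.32% in controls. Fewer reads for the members and more reads for other RNAs cannot be told apart in shares of this kind.

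**Figure D1:**
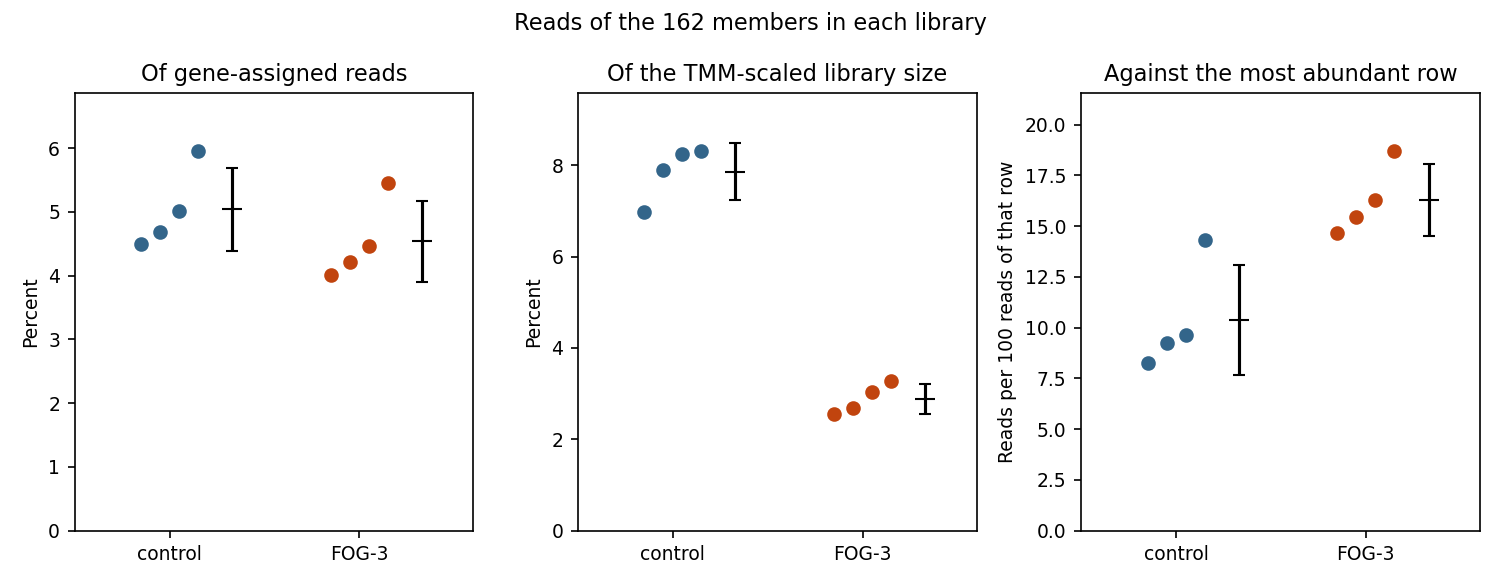
Reads of the 162 members in each of the 4 control and 4 FOG-3 libraries (1 point per library, bar for the mean with SD), as a percent of gene-assigned reads, as a percent of the TMM-scaled library size and per 100 reads of the most abundant gene row. The groups overlap in the first panel (means 5.04% and 4.54%), FOG-3 lies lower in the second (7.86% and 2.89%) and higher in the third (10.4 and 16.3).

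Among themselves the members covered a wide range of reads, from 20 to 876, with a median of 109.5. The reads of a row depend on the length of its RNA, which the table does not give, so these are reads and not levels per length. The top 27 members held 50% of the 26837 member reads, and the most abundant held 3.26%. That member ranked ninth in reads among all gene rows, and 2 members were among the 10 rows with the most reads. In all, 21 members were among the 100 rows with the most reads. Nearly all members were seen in every FOG-3 library: 160 to 162 of the 162 had at least 1 read there, against 96 to 157 in controls. This count moves with depth and with the choice of members by summed reads. Together the members had a mean of 4839.5 reads per FOG-3 library and 1869.75 per control.

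The most abundant member had 264, 95, 116 and 91 reads in FOG-3 libraries, and 39, 174, 40 and 57 in the control libraries. On the unscaled CPM scale its level was 1257 ± 231 in FOG-3 and 2330 ± 765 in controls (SD, n = 4). Its log2 fold change was -2.11 ± 0.21 with TMM (SE, edgeR adjusted p = 3.3e-22), -0.85 ± 0.21 with total counts alone (edgeR adjusted p = 0.0001) and -0.04 ± 0.25 when libraries were scaled on the most abundant gene row (edgeR adjusted p = 0.905). It lay 2.85, 2.79 and 2.72 below the median of all rows tested under these scalings, so that the call was lost only against the reference row. The seventh most abundant member, with 706 reads, lost its call already with total counts, at -0.35 ± 0.22 (SE, edgeR adjusted p = 0.14) after -1.59 ± 0.21 with TMM (edgeR adjusted p = 7.0e-13). The twelfth, with 408 reads, changed sides. It had 141, 75, 47 and 68 reads in FOG-3 libraries and 11, 51, 4 and 11 in the control libraries, and went from -0.72 ± 0.25 with TMM (edgeR adjusted p = 0.0065) to 1.30 ± 0.31 against the most abundant row (edgeR adjusted p = 3.9e-05).

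The main comparison asks which members were recovered with FOG-3 above or below the control level. With TMM scaling, 70 of 89 members tested were lower in FOG-3, 1 was higher and 18 did not pass (edgeR quasi-likelihood test, Benjamini-Hochberg adjusted p under 0.05 over all 886 rows tested). Over all 886 rows, 27.5% were called lower and 45.3% higher. The members lower in FOG-3 thus came to 78.7% of those tested. The median log2 fold change was -1.37 for the members (quartiles -1.84 and -0.82) and 0.74 for all rows tested. TMM-scaled CPM did not overlap between the groups for 61 members in the lower and 2 in the higher direction, beside 21.1% and 43.5% of all rows tested. Without control TTGT, the deepest control, 38 members were lower and 7 higher of 96 tested, beside 10.8% lower and 51.8% higher over all rows. The count of higher members was 3 without FOG-3 library TGGC (42.8% of all rows) and 2 without CGGA (53.5%), where 67 and 57 were lower (25.8% and 19.6% of all rows).

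The split of the calls turned with the scaling. With total counts alone, 22 members were lower and 16 higher, beside 9.48% and 67.3% of all rows, and all 22 were among the 70. Scaled on the most abundant gene row, 2 were lower and 38 higher, beside 0.677% and 79.7% of all rows, and 19 of the 70 then passed as higher. Of all 886 rows tested, 838 then had a log2 fold change above 0. The members' median log2 fold change was -0.13 and 0.64 under these scalings, and that of all rows tested 1.94 and 2.68. The members' median thus lay 2.10, 2.07 and 2.04 below that of all rows with TMM, total counts and the most abundant row, as a scaling moves all rows together. These values share the default filter, which some rows outside the block passed with a mean of 0 CPM in controls. With no filter the gap was 1.38 for all 162 members and 1.86 for the 89 of the main fit. With 1 CPM in 4 libraries it was 1.37 and 1.86. Under the DESeq2 size factors 23 were lower and 16 higher in edgeR (10.4% and 66.4% of all rows), and 23 and 14 in DESeq2's own test (9.82% and 63.4%). TMMwsp factors gave 59 and 2 (21.8% and 50.3%), upper-quartile factors 62 and 2 (24.3% and 49.7%), TMM factors from rows outside the block 72 and 1 (31.7% and 39.1%), and limma-voom 69 and 1 (26.9% and 44.2%). Over TMM and the other 6 scalings that involve no sum of the members, 2 members were lower throughout and 1 was higher throughout. The share of all rows called throughout was not counted. It can be at most 0.677% lower, as against the most abundant row. For higher it can be at most 39.1%, as with TMM factors from rows outside the block.

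**Figure D2:**
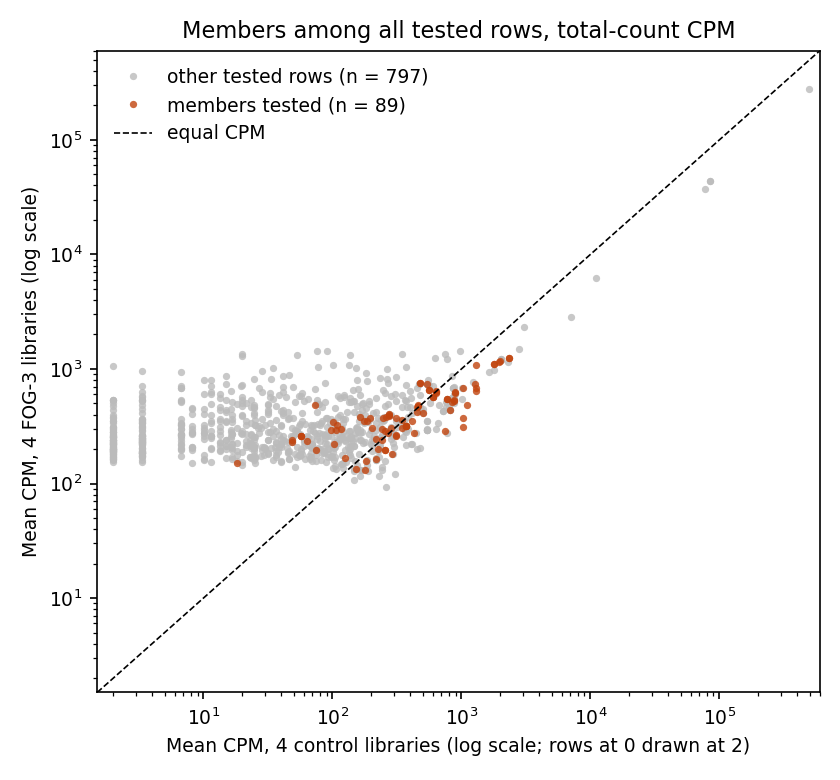
Mean CPM on total counts in the 4 control libraries (x, log scale, rows at 0 drawn at 2) and in the 4 FOG-3 libraries (y, log scale) for the 89 tested members and the 797 other tested rows, with the dashed line at equal CPM. The members follow the line more closely than most other rows, whose median log2 fold change on total counts is 2.25 against -0.13 for the members.

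**Figure D3:**
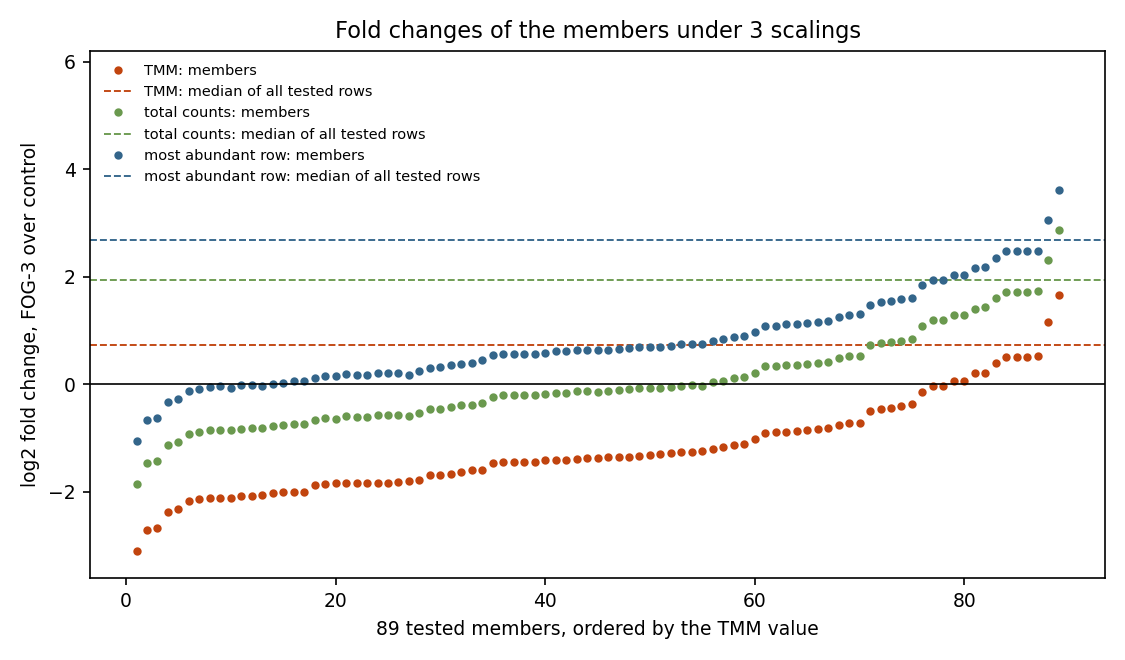
Log2 fold change (FOG-3 over control) of the 89 tested members, ordered along the x axis by the TMM value, under TMM, total counts and scaling on the most abundant gene row, with dashed lines at the median of all rows tested. The members' medians are -1.37, -0.13 and 0.64, each below the dashed line of its scaling at 0.74, 1.94 and 2.68.

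The members also differed among themselves by level. Of the 43 tested members with at least 200 reads, 42 were lower with TMM and 1 was higher. Of the 39 with 100 to 199 reads, 23 were lower, and of the 7 with fewer, 5 were lower. Other tested rows of the same read totals were lower in 37.8% (of 230), 17.5% (of 378) and 11.1% (of 189). In all, 174 of the 797 other tested rows were lower, so a lower call was not particular to the members. These other rows include the mitochondrial IDs and rows whose counts match those of members. The reads that define these groups also enter the fold change, so the shares are a description. Both ID ranges held lower members: 39 of 53 tested from 14200 to 14440 and 31 of 36 from 14480 to 14740, with medians of -1.37 on the log2 scale in both. The stretch of mitochondrial IDs between the ranges had 8 of 10 tested rows lower and a median of -1.40. Its 15 rows with at least 20 reads took 1.08% ± 0.06 of gene-assigned reads with the antibody and 1.59% ± 0.06 without it (SD, n = 4), and the groups did not overlap.

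A total of 3 members met the rule for naming, which took the smallest p-values in each direction among called members whose groups did not overlap. None of them had a near-identical partner among the members. WBGene00014492, the only member called higher with TMM, had 104, 39, 29 and 49 reads in FOG-3 libraries, and 4, 3, 1 and 1 in the control libraries. Every FOG-3 library lay above every control, at 244.4 to 372.8 against 55.9 to 202.8 TMM-scaled CPM. Its mean was 307.5 ± 52.5 TMM-scaled CPM in FOG-3 and 114.9 ± 63.0 in controls (SD, n = 4). On the log2 scale it was higher by 1.67 ± 0.47 (SE, edgeR adjusted p = 0.00073). The control level rests on 9 reads in all. No control reached the level of the filter on low counts (132 CPM), so this member was tested only through the FOG-3 libraries, where it is high, and its call with TMM is a description. With no filter it was higher by 2.27 ± 0.46 on the log2 scale (SE, edgeR adjusted p = 4.0e-05). Over the 20 alternative fits its log2 fold change ran from 1.30 to 3.60 and passed in all of them, and it is the member higher under all scalings. Most of these fits use the same default filter, and all rest on the same 9 control reads or fewer. Passing in all of them is therefore a description as well.

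WBGene00014692 went the other way. It had 40, 28, 29 and 30 reads in FOG-3 libraries, and 23, 104, 14 and 20 in the control libraries. The groups did not overlap on the unscaled CPM scale either, where it ran from 214.2 to 364.6 CPM with the antibody and from 750.9 to 1389 CPM without it. On total counts alone, with no TMM factors, its mean was 312 ± 70 CPM in FOG-3 and 1037 ± 269 in controls (SD, n = 4). Its log2 fold change was -3.10 ± 0.24 with TMM (SE, edgeR adjusted p = 4.8e-35) and ran from -3.43 to -1.06 over the 20 alternative fits.

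WBGene00014416 was similar in size. It had 40, 33, 34 and 41 reads in FOG-3 libraries, and 30, 67, 23 and 13 in the control libraries. Its unscaled level was 372 ± 105 CPM with the antibody and 1027 ± 360 CPM without it (SD, n = 4). The groups did not overlap, and control TTAA was the highest. Its log2 fold change was -2.72 ± 0.24 with TMM (SE, edgeR adjusted p = 2.6e-26) and ran from -3.05 to -0.67 over the 20 alternative fits. WBGene00014692 and WBGene00014416 passed as lower in all 20 of these fits, and they are the 2 members lower under all scalings.

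These members had unlike places within the block, whatever the library was scaled to. WBGene00014492 made up 1.08% ± 0.26 of all member reads with the antibody and 0.15% ± 0.10 without it (SD, n = 4). WBGene00014692 took 0.69% ± 0.12 and 2.03% ± 0.28, and WBGene00014416 took 0.82% ± 0.21 and 2.09% ± 0.87. For every 100 reads of WBGene00014692 there were 260.0, 139.3 and 163.3 reads of WBGene00014492 in FOG-3 libraries TGGC, GGTT and then GGCA, while CGGA had 29 reads of each. The controls had 17.4, 2.88, 7.14 and 5.0. The pair was chosen as extremes of the comparison, so this ratio has no test.

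**Figure D4:**
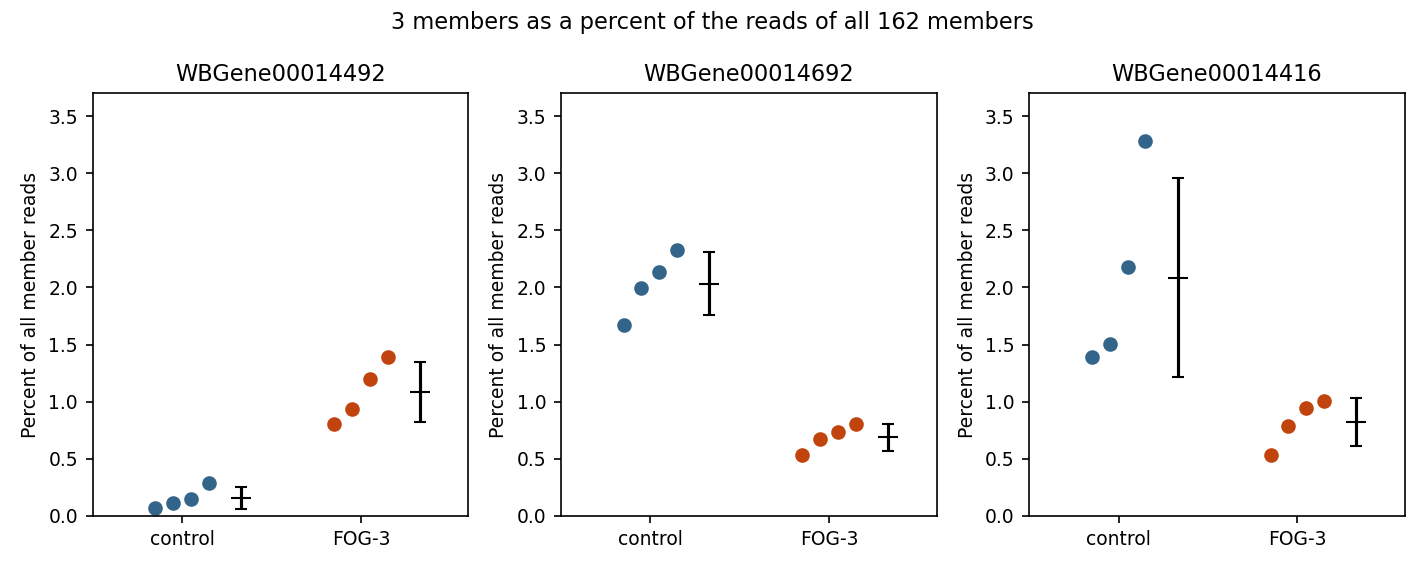
Percent of the reads of all 162 members taken by WBGene00014492, WBGene00014692 and WBGene00014416 in each of the 4 control and 4 FOG-3 libraries (1 point per library, bar for the mean with SD). The first rises from a mean of 0.15% in controls to 1.08% in FOG-3, the second falls from 2.03% to 0.69% and the third from 2.09% to 0.82%, with no overlap between the groups in any panel.

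The block did not move as 1 unit. When each library was scaled on the summed reads of the members, a setting chosen after the data were seen, 22 of the 89 tested members were higher and 17 lower in FOG-3 relative to the block (72.9% and 7.0% of all rows tested), and 50 did not pass. Members that were lower relative to the block had a median of 460 total reads, and those that were higher a median of 137.5. The fold changes ran from -1.63 to 3.11 on the log2 scale, with a median of 0.10. The number of reads of a member and its fold change share the same counts, so the difference in read totals has no test of its own. Of the 89, 4 reached the filter level in all FOG-3 libraries and no control, and 12 in all FOG-3 libraries and some controls. Passing the filter through FOG-3 libraries selects members that are high there. The counts of higher members are therefore descriptions, under this and the other scalings. Near-identical members, described next, were counted apart here. Taken as families, the 22 made up 17 and the 17 made up 13.

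Part of the block repeats the same counts. Identical reads in all 8 libraries were found for 16 members in 7 sets, 6 pairs and 1 set of 4, so that the 162 members held 153 distinct profiles. The set of 4 has consecutive ID numbers, as have 2 of the pairs. Each of its rows had 39, 38, 29 and 20 reads in FOG-3 libraries and 7, 26, 8 and 7 in the control libraries, and fell by 1.44 ± 0.33 on the log2 scale with TMM (SE, edgeR adjusted p = 2.6e-05). The pair with the most reads had 781 reads in each row and fell by 1.99 ± 0.21 on that scale (SE, edgeR adjusted p = 5.3e-20). Another pair, of 110 reads each, ranged from 20 to 28 reads per library with the antibody, held 5, 5, 0 and 0 in the controls and did not pass with TMM (0.51 ± 0.49 on the log2 scale, SE, edgeR adjusted p = 0.35). Among rows outside the block with at least 20 reads, 79 of 2851 (2.77%) had an identical partner, against 9.88% of the members. Counted once per profile, 64 of 82 tested members were lower and 1 higher. Refitted with each set kept once over the whole table, 61 of 80 were lower and 1 higher (26.8% and 44.1% of all rows).

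Many more members were close to identical. With a summed difference of at most 5% of the larger total, 52 members (32.1%) fell into 23 families of 2 to 4, which left 133 families in all. In 13 of 37 such pairs the partners lay in different ID ranges, so near-identical counts were not limited to neighbouring numbers. A further match was found outside the block, where 57 rows lay within 5% of 45 members. In all, 74 members (45.7%) had such a partner in the table. How reads that map to several places were counted is not given in the sources used here, and reads shared between rows were not tested. Members of a family are therefore not separate observations. The 70 lower members came from 50 families out of 65 tested, and in no family did tested members differ in their call.

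The 73 members left untested were the sparse ones, with a median of 30 reads and 109 at most, against a median of 196 for those tested. Of the 89 that passed the filter on low counts, 65 reached its level (132 CPM) in all 8 libraries. Another 4 reached it in all FOG-3 libraries and no control, and 12 in all FOG-3 libraries and some controls. It was reached by 3 in all controls but not all FOG-3 libraries, and by 5 in the whole of neither group. The untested members made up 12.0% ± 0.3 of member reads with the antibody (11.7% to 12.3%) and 5.02% ± 1.25 without it (3.28% to 6.25%, SD, n = 4), and the groups did not overlap. Of gene-assigned reads they held 0.545% ± 0.065 and 0.257% ± 0.090. The pooled ratio of FOG-3 to control CPM on total counts was above 1 for 62 of these 73 members, counting 1 with no control read, and for 32 of the 89 tested. In the edgeR fit on total counts, 702 of all 886 rows tested had a log2 fold change above 0. Those 886 rows had passed the filter, and a fitted value is another measure than a pooled ratio. Untested rows outside the block were not counted. Whether ratios above 1 set the untested members apart from other sparse rows was therefore not tested. The median of the pooled ratio over the 161 members with control reads was 1.20, with quartiles of 0.74 and 2.56. These are values of sparse rows: 28 members had 1 to 3 control reads in all. The member with no control read had 10, 4, 4 and 4 reads in FOG-3 libraries.

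With no filter on low counts, all 162 members entered the fit, and 34 were lower and 1 higher (1.08% and 7.75% of all 12240 rows). With a filter of 1 CPM in 4 libraries, 52 were lower and 5 higher (3.65% and 22.3% of 5258 rows). Just inside the minimum of 20 reads, 23 members with 20 to 24 reads held 422 reads with the antibody and 72 without it, a pooled CPM ratio of 1.85. Just outside it, 28 rows with 15 to 19 reads held 388 and 88, a ratio of 1.39. The members held 95.3% of all reads of the block.

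The make-up of the block was alike within groups. Over the 89 tested members, which share sequences and are not independent, Spearman correlations of reads ran from 0.83 to 0.91 between FOG-3 libraries (6 pairs), from 0.84 to 0.93 between controls (6 pairs) and from 0.66 to 0.79 between groups (16 pairs). On log2(CPM + 50), Pearson's r lay between 0.84 and 0.91, 0.84 and 0.93, and 0.63 and 0.80 in the same order. The order of the members by reads was thus more alike between libraries of a group than between groups, and these are descriptions with no test. The 2 ID ranges kept their parts of the block, with 59.5% ± 1.3 of member reads from 14200 to 14440 with the antibody and 61.1% ± 1.5 without it (SD, n = 4), and the groups overlapped.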

How the data were processed

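The file deposited by the authors holds raw counts, with gene IDs in rows and libraries in columns. STAR 2.4.2 and HTSeq were used, per the submitters' processing notes. Not given in the sources used here are the annotation, genome build, strand setting, the handling of multi-mapped reads and whether PCR copies were collapsed. Column names gave the group of each library. The 2 rows that name no gene (2.41% to 12.4% and 0.31% to 0.70% of all reads) stayed out of library sizes and tests.

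Counts were fitted on the whole table with edgeR 4.0.16 in R 4.3.3 (TMM factors, group as the only term, quasi-likelihood F test). The default filter (minimum count 10, minimum total 15) kept 886 rows. A row was called at an adjusted p under 0.05. Approximate SEs are the absolute log2 fold change over the root of F. The fit was tested on simulated data in which equal numbers of rows went up and down. Such balanced changes do not check the choice of scaling. Members were named by smallest p among called members without overlap, at most 2 per direction. Alternatives used limma 3.58.1 and DESeq2 1.42.0. Other tested rows and the mitochondrial stretch served for comparison. The members, rules and alternatives were chosen with earlier results of these data known.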

Additional observations from a re-analysis of the deposited data

Results flagged for a closer look

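Rows of the block with fewer than 20 reads, which are no members, held a higher share of gene-assigned reads in every FOG-3 library than in any control. Their mean was 0.248% ± 0.047 (SD, n = 4; 0.202% to 0.310%) in FOG-3 and 0.090% ± 0.036 (0.064% to 0.143%) in controls, from 185 rows and 1310 reads. A higher level in FOG-3 was common among the rows tested. With total counts the median log2 fold change of all 886 rows tested was 1.94. With TMM and no filter, 9918 of all 12240 rows had a log2 fold change above 0. Dixon's test, run on 20 sets of 4 values from 1 group each, singled out no library.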

How the results depend on the processing

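With 70 members lower, 1 higher and a median log2 fold change of -1.37 under TMM, values moved as follows. Total counts gave 22, 16 and -0.13. DESeq2 size factors in edgeR gave 23, 16 and -0.20, and the DESeq2 test 23, 14 and -0.21. Scaling on the most abundant gene row gave 2, 38 and 0.64, and on the summed members (chosen after seeing the data) 17, 22 and 0.10, which turned the sign of the median. No filter gave 34 lower and -0.23, and 1 CPM in 4 libraries 5 higher and -0.34, with 162 members tested in both. TMMwsp gave 2 higher and -0.98, upper-quartile factors 2 higher, and TMM from rows outside the block -1.70. Among the 89 members of the main fit, 31 were lower with no filter (1.08% of all rows), and their median was -0.71. With 1 CPM in 4 libraries, 49 of these 89 were lower (3.65% of all rows), and their median was -0.825. The same members thus moved as well, and the cause was not tested.

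With libraries left out one at a time, counts were 38 to 71 lower, 1 to 7 higher and the median -1.56 to -0.62, with 38, 7 and -0.62 all without control TTGT. The share difference then ran from -0.81 to -0.20 percentage points. It was -3.79 without the most abundant gene row in the total and -13.1 without the 10 most abundant (160 members), and moved by less than the spread between libraries in the other alternatives. Limma-voom, a minimum of 100 reads, identical rows once and near-identical families once (chosen after seeing the data) left both counts within 1.5 times. A minimum of 50 reads could not change these counts, as every tested member had at least 70 reads. The 3 named members kept direction and call in all 20 alternative fits. For WBGene00014492 this is a description, as it passed the default filter through the FOG-3 libraries alone. No paired analysis was possible because the columns carry no replicate numbers. Depth limits the shallow controls, where 3 reads are worth up to 200.5 CPM.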
